A study of Homo sapiens with 8 samples.

Results

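Cytosolic ribosomal protein genes were followed in LX-2 cells, an immortalized human hepatic stellate cell line with a myofibroblastic phenotype, treated with vehicle or with OSMI-1, a small-molecule inhibitor of the O-GlcNAc transferase OGT. Members were the genes whose symbol is RPL or RPS followed by a number and an optional A, L, X or Y, together with RPSA, RPLP0, RPLP1 and RPLP2. Of 80 rows with such a symbol, 79 reached a total of 10 counts over the 8 libraries and were kept among 14895 genes tested. RPL3L, which had 4 counts in all, was left out. The large subunit had 47 members and the small subunit 32.

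Both groups of 4 libraries came from LX-2 cells grown in medium with 5% serum. Control cells received the vehicle DMSO, and OSMI-1 cells received the inhibitor at 50 µM for 24 h. The replicates were biological replicates of a single cell line, and messenger RNA was enriched through its poly(A) tail. Library totals ranged from 24166756 to 28201215 estimated counts. Of 12 stellate cell markers, 10 had at least 100 counts in every library, while DES (desmin) and LRAT (a retinoid-storage enzyme) had at most 5 and were near 0 in these cells. In bulk RNA, fewer cells expressing a gene and less of its RNA per cell cannot be told apart.

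Ribosomal proteins assemble with ribosomal RNA into the large subunit, which joins amino acids, and the small subunit, which reads the messenger RNA. Their genes are scattered over the genome but are made in matched amounts, and excess proteins are degraded. In vertebrates most of their messenger RNAs start with a C followed by a run of pyrimidines, the 5′ terminal oligopyrimidine (TOP) tract, through which the mTORC1 kinase pathway and the RNA-binding protein LARP1 control their translation and storage. Regulation through this tract acts largely on translation, which poly(A) RNA levels do not measure.

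The start regions of the genes with the largest rises and falls are shown because the TOP tract is a sequence feature shared by many members. They come from the RefSeq promoter entries on GRCh38.p14, the same build as hg38, and give the 10 bases before the annotated start and the first 20 transcribed bases, 5′ to 3′ on the gene's strand. No promoter entry was matched for RPL23A and RPL5, also among the largest falls, so they are not shown. Capitals mark an uninterrupted pyrimidine run that begins with C at the annotated start and has at least 4 further pyrimidines.
RPL12 (higher, chr9:127451387-127451416, minus strand): cgatttccggCCTCTCggctttcggctcgg
RPL28 (higher, chr19:55385922-55385951, plus strand): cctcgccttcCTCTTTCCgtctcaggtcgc
RPS18 (higher, chr6:33272065-33272094, plus strand): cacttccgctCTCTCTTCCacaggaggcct
RPLP0 (higher, chr12:120201092-120201121, minus strand): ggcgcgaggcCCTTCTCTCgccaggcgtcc
RPL39 (higher, chrX:119791611-119791640, minus strand): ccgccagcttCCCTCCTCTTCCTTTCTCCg
RPS4X (higher, chrX:72277229-72277258, minus strand): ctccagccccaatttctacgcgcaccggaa
RPS16 (lower, chr19:39435930-39435959, minus strand): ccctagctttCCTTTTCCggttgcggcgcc
RPL21 (lower, chr13:27251548-27251577, plus strand): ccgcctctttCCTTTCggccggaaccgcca
RPL11 (lower, chr1:23691796-23691825, plus strand): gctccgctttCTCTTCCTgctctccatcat
RPSA (lower, chr3:39406710-39406739, plus strand): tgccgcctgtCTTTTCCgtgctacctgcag

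A promoter entry was matched for 63 of the 79 members, and 46 of them (73.0%) had the tract at an annotated start. By the same definition 5.14% of 27305 genes with an entry had it, and 7.17% of the 11479 tested genes with an entry. The run was 5 to 19 pyrimidines long, with a median of 8. RPL39, which lines the exit tunnel of the large subunit, had the longest run. RPS4X, the X-linked gene of a small subunit protein, had no tract at its annotated start, which says only that these letters were not found at that position. The tract was found in 5 of 6 members called higher, 6 of 9 called lower and 35 of 48 called neither (those with an entry). The median log2 fold change was -0.02 for members with the tract and 0.01 for the 17 that had an entry but no tract.

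The question put to the data was whether inhibition of OGT changed messenger RNA of these genes. Normalized counts, meaning counts divided by the size factor of the library, were compared with the Wald test of DESeq2, and genes with a q of at most 0.05 were called, where q is the p-value after Benjamini-Hochberg adjustment over all genes tested. Most members were not called. Of 79 members, 18 were called (22.8%), 12 of them lower (15.2%) and 6 higher (7.59%) after OSMI-1. Among all 14895 genes the called share was 43.9%, with 22.6% lower and 21.4% higher. Because members are abundant, the 5595 genes whose mean over the libraries was 1000 normalized counts or more, a set chosen after values were seen, are the closer background. Of these 58.7% were called, with 33.1% lower and 25.6% higher. The members' share lay below both backgrounds, and that difference was not tested.

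**Figure D1:**
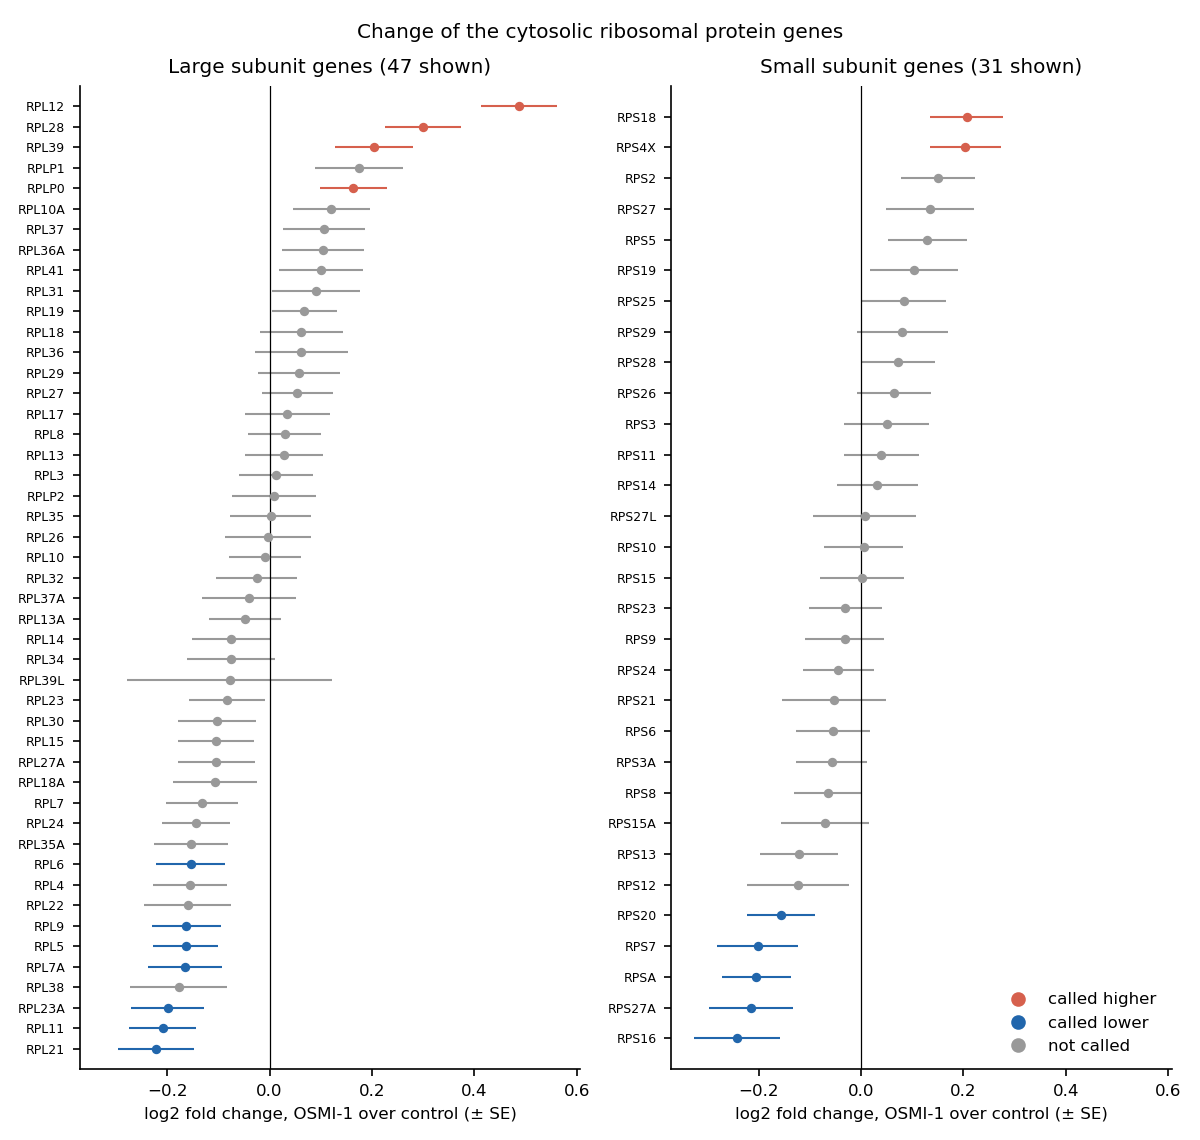
Log2 fold change of OSMI-1 over control for 78 of the 79 genes (x axis; points are DESeq2 estimates, bars are ± 1 SE), sorted within the large subunit (left) and the small subunit (right), with called genes coloured by direction. The estimates run from -0.24 for RPS16 to 0.49 for RPL12, and most bars of uncalled genes reach or lie near 0.

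Changes were small in either direction. The median log2 fold change of the members was -0.01, the median of its size without sign was 0.09, and the range ran from -0.24 to 0.49. Estimates below 0 were found for 41 members and above 0 for 38. All tested genes had a median size of 0.33 and the abundant genes one of 0.24. No member reached a 2-fold difference, whereas 8.06% of all tested genes and 4.16% of the abundant genes were called with at least that difference. Only 2 called members, RPL12 and RPL28, had a log2 fold change of at least 0.25 in size. Of all genes tested, 64.3% had a smaller change in size than RPL12 and 46.7% a smaller one than RPL28. In the large subunit 7 members were called lower and 4 higher, with a median of -0.03, and in the small subunit 5 were called lower and 2 higher, with a median of 0.00.

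A missed threshold does not show that a gene did not change, so the intervals were examined. For 57 of the 61 uncalled members the 95% confidence interval of the log2 fold change lay within -0.32 to 0.32. The exceptions were RPL22, RPL38, RPLP1 and RPL39L. The widest interval, from -0.47 to 0.31, belonged to RPL39L, the least abundant member. At the edge of the threshold, RPL7A (q = 0.0490) and RPL6 (q = 0.0487) were called by DESeq2, and RPL4 (q = 0.0643) and RPL24 (q = 0.0663) were not.

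RPL12, a protein at the base of the stalk that recruits translation factors, had the largest rise. Its normalized counts in Control replicates 1 to 4 were 10561, 10400, 10036 and 10195, and in OSMI-1 replicates 1 to 4 they were 14739, 16689, 14179 and 12436. The lowest OSMI-1 library lay above the highest control library, and all 4 pairs rose. The means were 10298 ± 230 (SD, n = 4) and 14511 ± 1752 (SD, n = 4), the log2 fold change was 0.49 ± 0.075 (SE) and the DESeq2 q was 7.30e-10. RPL12 had a fractional estimated count in all 8 libraries, so reads that align to more than one gene were shared out in its value.

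RPL28, a protein of the large subunit, was the other member with a change above 0.25. Its normalized counts were 21383, 21655, 20355 and 22731 in Control replicates 1 to 4 and 25950, 29706, 26550 and 24028 in the OSMI-1 replicates. The groups did not overlap. The fold change was 1.23, with a log2 value of 0.30 ± 0.074 (SE) and a DESeq2 q of 0.000204. RPL12 and RPL28 were called higher under each of the 13 alternative settings.

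RPS18, a small subunit protein at the contact with the large subunit, rose by a log2 fold change of 0.21 (q = 0.0104, DESeq2). Its normalized counts were 10043, 10065, 9723 and 9851 in the control libraries and 10827, 12822, 11865 and 10416 in the OSMI-1 libraries. The groups stood apart, although OSMI-1 replicate 4 lay only just above the controls. RPS4X rose by 0.20 (q = 0.00852, DESeq2), from 16566, 15333, 17095 and 16637 normalized counts to 18403, 19889, 19596 and 17729, again without overlap. RPL39 rose by 0.20 (q = 0.0192, DESeq2), from 4660, 4722, 4068 and 4851 to 5210, 6209, 4693 and 5024 normalized counts. Its groups overlapped, because OSMI-1 replicate 3 lay below 2 of the control libraries, yet each pair rose.

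RPLP0, the scaffold of the stalk and a frequent reference gene in quantitative PCR, was the most abundant member in counts. Its control libraries had 32974, 36739, 37253 and 40657 normalized counts and its OSMI-1 libraries 35495, 42981, 44749 and 42309. The ranges overlapped, and the rise of 0.16 ± 0.065 (SE, log2; DESeq2 q = 0.0276) was not called with no replicate block. Its stalk partners RPLP1 and RPLP2 had log2 fold changes of 0.17 (q = 0.0818) and 0.01 and were not called.

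**Figure D2:**
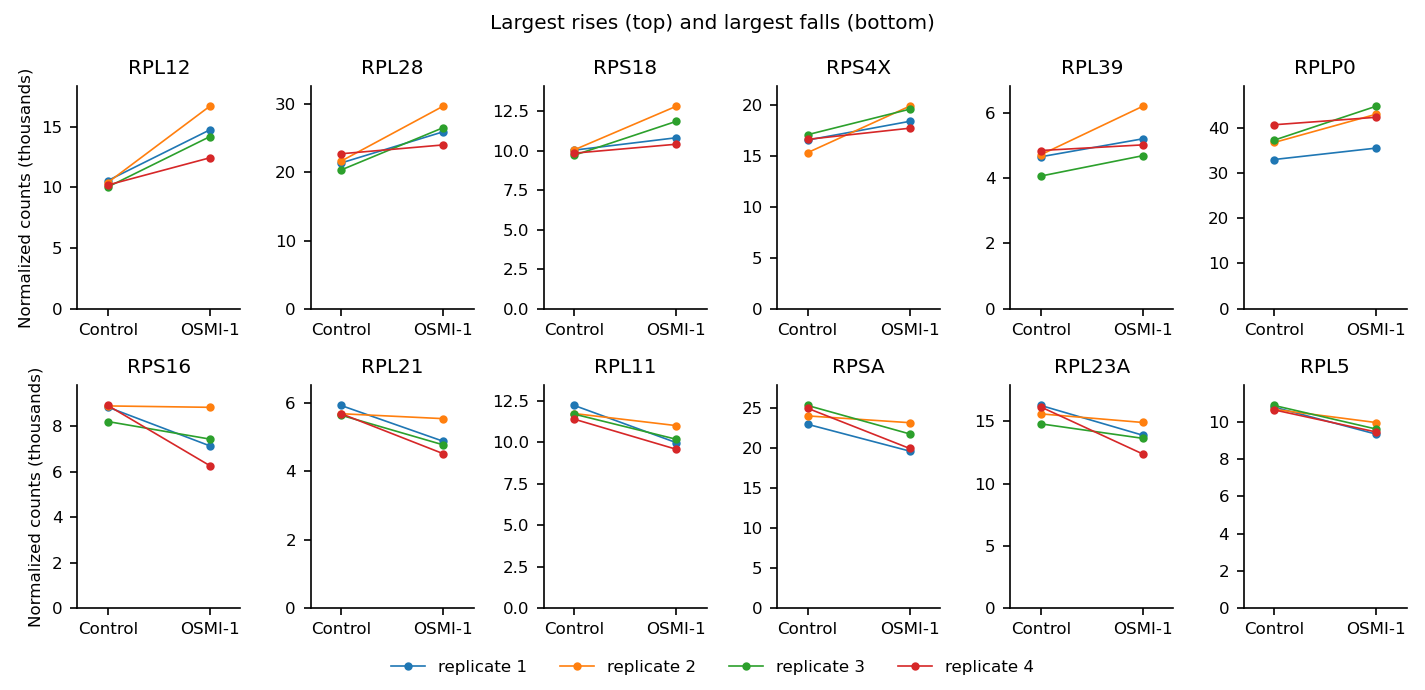
Normalized counts (in units of 1000, y axes from 0) of the 6 members with the largest called rises (top) and the 6 with the largest called falls seen in all 4 pairs (bottom) in control and OSMI-1 libraries, with lines joining libraries of the same replicate number. RPL12 and RPL28 separate the groups most clearly, while the line of replicate 2 is nearly flat for RPS16 and RPL21 and that of replicate 4 is the steepest fall for RPS16, RPSA and RPL23A.

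The falls were smaller in size than the rises of RPL12 and RPL28, but the largest falls exceeded the other rises. RPS16, a small subunit protein, had the lowest estimate at -0.24 ± 0.084 (SE, log2; DESeq2 q = 0.0104). Its normalized counts were 8844, 8896, 8209 and 8916 in the control libraries and 7138, 8835, 7436 and 6268 in the OSMI-1 libraries. OSMI-1 replicate 2 stood among the controls, so the groups overlapped. RPL21 fell by 0.22 on the log2 scale (q = 0.00750, DESeq2), from 5921, 5681, 5637 and 5682 normalized counts to 4876, 5537, 4771 and 4514, without overlap.

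RPL5 and RPL11 form, with a small ribosomal RNA, a particle that can bind MDM2 and thereby stabilize p53. Both fell. RPL11 went from 12236, 11748, 11712 and 11407 normalized counts in the control libraries to 9989, 11020, 10195 and 9588 in the OSMI-1 libraries, a log2 fold change of -0.21 (q = 0.00463, DESeq2). RPL5 went from 10801, 10681, 10890 and 10653 to 9349, 9972, 9623 and 9464, a log2 fold change of -0.16 (q = 0.0223, DESeq2). In both genes every OSMI-1 library lay below every control library.

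RPSA, a small subunit protein also known as the laminin receptor, fell by 0.21 on the log2 scale (q = 0.00662, DESeq2). Its control libraries had 22982, 24032, 25336 and 24985 normalized counts and its OSMI-1 libraries 19632, 23185, 21783 and 19965, with OSMI-1 replicate 2 slightly above the lowest control. RPSA had a fractional count in all 8 libraries. RPSAP58, a pseudogene copy of RPSA chosen here after its values were seen, was called lower as well (log2 fold change -0.46, DESeq2 q = 0.000813) and also had fractional counts throughout, so neither value is certain. RPL23A, at the exit of the nascent chain tunnel, fell by 0.20 (q = 0.0141, DESeq2), from 16275, 15601, 14798 and 16154 normalized counts to 13883, 14909, 13633 and 12374. RPS27A, which is made as a fusion with ubiquitin, fell by 0.22 (q = 0.0209, DESeq2), from 3630, 3295, 3083 and 3307 to 2912, 3302, 2693 and 2590 normalized counts, with no fall in pair 2.

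The other members called lower were RPS7, RPL7A, RPL9, RPS20 and RPL6, whose log2 fold changes lay between -0.20 and -0.15. RPL9 was the only one of these whose groups did not overlap. In all, the groups did not overlap for 8 members (10.1%), 4 higher and 4 lower, against 38% of all genes tested and 46.9% of the abundant genes. Each of the 6 members called higher rose in all 4 pairs. Of the 12 called lower, 8 fell in all 4 pairs, and RPL6, RPL7A, RPS27A and RPS7 did so in 3, with pair 2 the exception. Counting uncalled members too, 12 members (15.2%) were lower and 6 (7.59%) higher in all 4 pairs. The corresponding shares were 28.1% and 27.8% of all genes tested, and 36.9% and 29.5% of the abundant genes.

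Several well-known members were not called. RPS6, the substrate of the S6 kinases downstream of mTORC1, had 12515 ± 1261 (SD, n = 4) and 12043 ± 1130 (SD, n = 4) normalized counts in control and OSMI-1 cells, with a log2 interval of -0.20 to 0.09. RPL13A, another common reference gene, had a log2 fold change of -0.05 (-0.19 to 0.09). RPL3, a protein next to the peptidyl transferase centre, had 0.01 (-0.13 to 0.16), and RPL10, needed in a late step of large subunit maturation, had -0.01 (-0.15 to 0.13). RPS19, a gene mutated in Diamond-Blackfan anaemia, had 0.10 (-0.07 to 0.27). RPL41, the shortest ribosomal protein, had 0.10 (-0.06 to 0.26) with a fractional count in every library. RPS2 had 0.15 (0.01 to 0.29), and its q of 0.0789 missed the threshold.

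Members moved together between libraries, by an amount similar to the treatment differences. OSMI-1 replicate 2 had the highest normalized count of its group for 66 of 79 members, compared with 29.6% of all genes, and OSMI-1 replicate 4 the lowest for 55 of 79, compared with 28.0% of all genes. Control replicate 3 was the lowest control for 43, compared with 27.7% of all genes. The median log2 ratio of the members within pairs 1 to 4 was -0.08, 0.12, 0.05 and -0.18, and members were higher in the OSMI-1 library in 23, 63, 43 and 13 of 79 cases. For the same 10994 genes these pair medians were all between -0.01 and 0.00. Size factor normalization holds such medians near 0, so they are no independent comparison. The direction of the family thus differed between pairs.

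**Figure D3:**
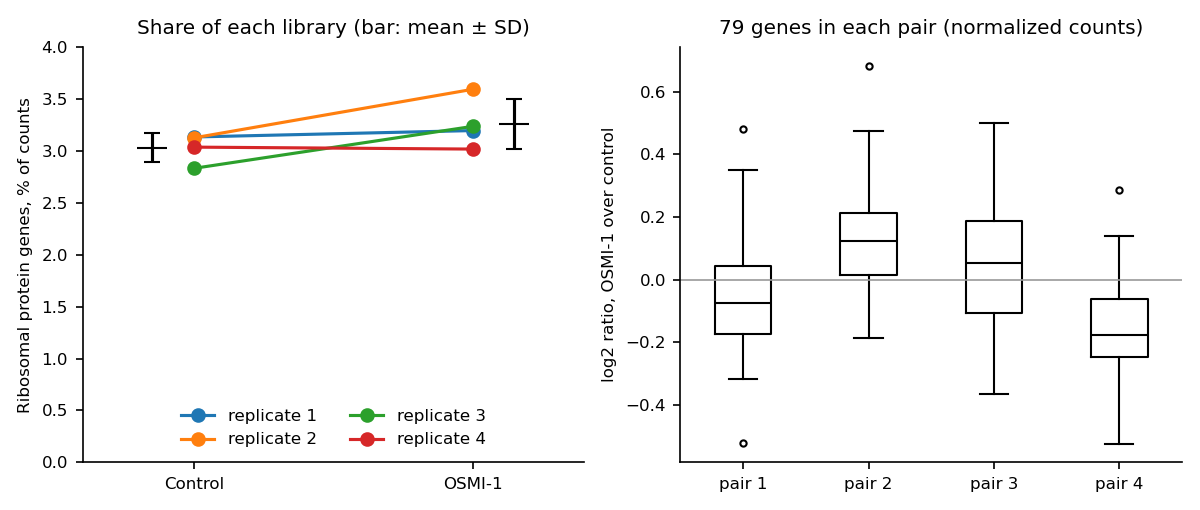
Left, the percentage of all estimated counts in the 79 genes in each library (lines join libraries of one replicate number; bars are mean ± SD, n = 4). Right, box plots of the log2 ratio of OSMI-1 over control normalized counts of the 79 genes within each pair (box, quartiles; line, median; whiskers to 1.5 times the box; points beyond), with medians of -0.08, 0.12, 0.05 and -0.18.

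The treated libraries also scattered more. The coefficient of variation of a member had a median of 5.53% among the control libraries and 9.85% among the OSMI-1 libraries, while the abundant genes had 7.85% and 7.99%. The members took 3.13, 3.13, 2.83 and 3.04% of the counts in Control replicates 1 to 4 and 3.20, 3.59, 3.24 and 3.02% in the OSMI-1 replicates. The share was 3.03% ± 0.14 (SD, n = 4) and 3.26% ± 0.24 (SD, n = 4), a mean paired difference of 0.23 points ± 0.24 (SD of the differences), higher in 3 of 4 pairs. After size factor normalization the summed counts of the members differed by a ratio of 1.01.

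**Figure D4:**
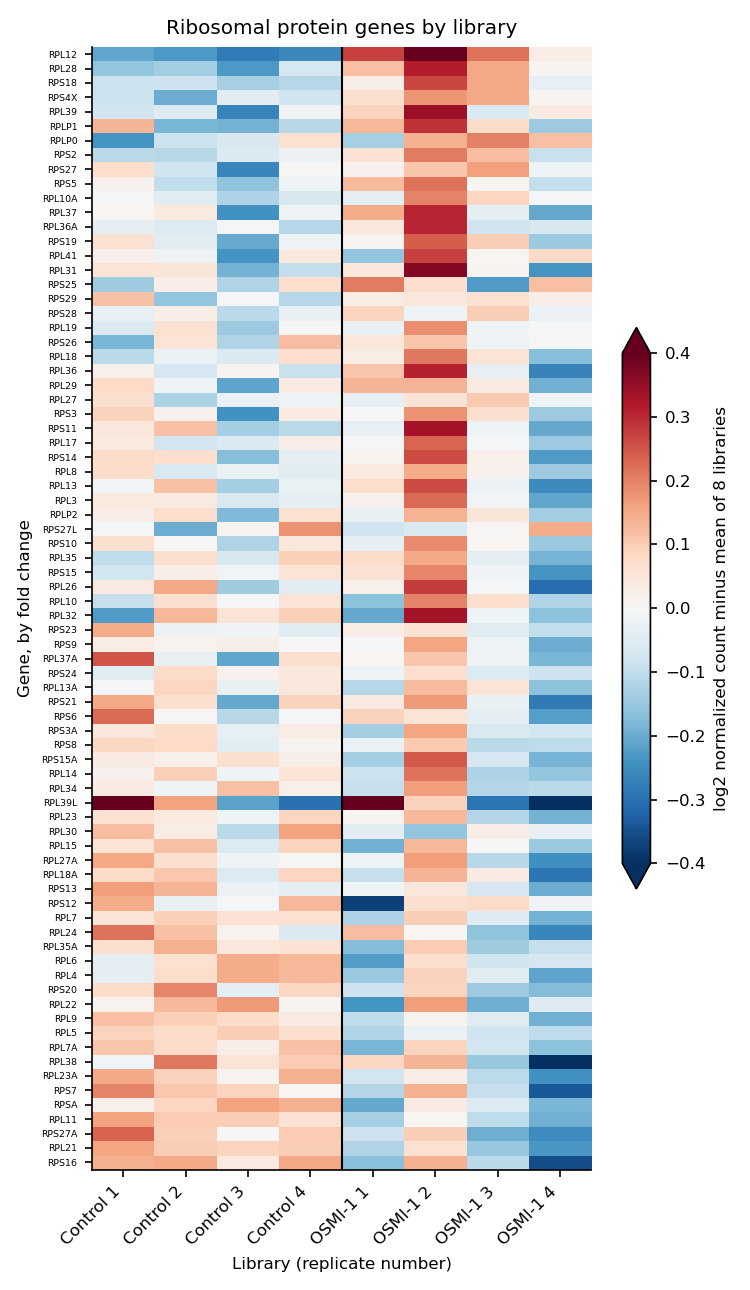
Log2 normalized count of 78 of the 79 genes (rows, sorted by fold change) in each library (columns) minus the mean of that gene over the 8 libraries, with colours limited to ± 0.4. The column of OSMI-1 replicate 2 is red for most genes and that of OSMI-1 replicate 4 blue, including many genes that were not called.

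The calls depended on these libraries and on the scaling. Without replicate 4, no member was called lower by DESeq2 (3 had an unadjusted p under 0.05; edgeR was not run on this subset) and 9 were called higher. Without replicate 2, 10 were called lower and 2 higher. Without replicate 1 the counts were 5 and 8, and without replicate 3 they were 5 and 3. Without replicates 1 to 4 in turn, 2961, 2699, 2777 and 2661 of all 14895 genes were called lower. Those called higher numbered 2720, 2405, 2497 and 2445. In the reported fit, 3360 of all genes were called lower and 3181 higher. With no replicate block DESeq2 called 7 members lower and 4 higher, against 3207 and 3100 of all genes. RPL39, RPLP0, RPS27A, RPS7, RPL7A, RPS20 and RPL6 were no longer called. With library totals as size factors, 0 members were called lower (0 at an unadjusted p under 0.05) and 16 higher. Of all genes, 2563 were then called lower and 4043 higher, and the median of all genes rose to 0.09. Each of the 18 called members kept its sign under all 13 settings.

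Single members differed in how often they stayed past the threshold. After RPL12 and RPL28, RPS4X was called under 12 of the 13 settings, RPL11, RPL21 and RPS18 under 11, RPL23A and RPSA under 10, and RPL39 and RPS16 under 9. RPLP0, RPS27A and RPS7 were called under 7, RPL5 under 6, and RPL6, RPL7A, RPL9 and RPS20 under 5. Without replicate 2 the calls of RPS18, RPS4X, RPL39 and RPLP0 were lost, and without replicate 3 those of RPS18, RPL39 and RPLP0, together with the falls of RPS27A, RPL5, RPL6, RPL7A, RPL9, RPS20 and RPS7. Over the fits that left out a replicate, the log2 fold change of RPS18 spanned 0.16 to 0.25, that of RPS4X 0.15 to 0.24, that of RPL39 0.14 to 0.25 and that of RPLP0 0.13 to 0.20. Without replicate 4 the calls of all 12 members that fell were lost, and without replicate 1 those of RPS16, RPS27A and RPL5 among others. The calls of RPL5, RPL9 and RPS20 were also lost without replicate 2. The log2 fold change then spanned -0.32 to -0.15 for RPS16, -0.28 to -0.19 for RPL21, -0.25 to -0.18 for RPL11, -0.26 to -0.17 for RPSA, -0.24 to -0.14 for RPL23A, -0.29 to -0.17 for RPS27A and -0.19 to -0.15 for RPL5.

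Levels between members were compared as normalized counts per kilobase of the canonical transcript, an approximate scale because long annotated ends lower the value of some genes. In control cells RPL35 had 37421 per kilobase and RPS2 had 33621, both among the high levels. Lowest were RPS27L with 127, RPL39L with 191 and RPL14 with 687, where the canonical transcripts of RPS27L and RPL14 are 6110 and 7136 bases long. None of these 5 members was called, and RPL35 (0.00), RPL14 (-0.07) and RPS27L (0.01) had log2 fold changes near 0.

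Paralogs of ribosomal proteins can replace the common form in some tissues. RPL39L supplied 2.95% ± 0.72 (SD, n = 4) of the summed RPL39 and RPL39L normalized counts in control cells and 2.45% ± 0.70 (SD, n = 4) in OSMI-1 cells. RPS27L, a p53-inducible paralog, supplied 12.9% ± 1.5 and 11.9% ± 1.2 of the sum with RPS27, which had a log2 fold change of 0.13 and was not called. The shares of both paralogs overlapped between groups.

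A different picture was seen for RPL26L1, a paralog of RPL26 whose symbol lies outside the rule. Its normalized counts were 639, 618, 588 and 625 in the control libraries and 367, 419, 351 and 339 in the OSMI-1 libraries. The groups were far apart, and the log2 fold change of -0.75 ± 0.12 (SE; DESeq2 q = 5.17e-09) was larger in size than that of any member. RPL26 itself had a log2 fold change of 0.00, so the share of RPL26L1 in the sum of both went from 13.4% ± 0.82 (SD, n = 4) to 8.48% ± 0.70 (SD, n = 4). RPL7L1 was called lower at -0.15 (q = 0.0484, DESeq2), with fractional counts in every library, but the call was lost under 10 of the 13 settings, among them every fit without a replicate (q up to 0.468 over the settings). RPL22L1 (0.16) and RPL36AL (0.07) were not called.

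Ribosomal genes with other symbols were examined beside the members. FAU, a ubiquitin-like fusion with a small subunit protein, had a log2 fold change of 0.08 (-0.07 to 0.22). RACK1, a scaffold on the small subunit, had 0.00 (-0.13 to 0.14), with 25097 ± 479 and 25244 ± 2150 (SD, n = 4) normalized counts in control and OSMI-1 cells.

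The genes of the surrounding pathway were described with the same fit. The list of 51 translation factor genes also held TPT1, NACA, BTF3 and NAP1L1, which are not elongation or initiation factors. Of these 51, 12 were called lower and 8 higher, with a median log2 fold change of -0.03. The called share was 39.2%, against 43.9% of all genes tested. The log2 fold changes of the list ran from -2.31 to 0.47. The genes named next had the largest absolute Wald statistics, not always the largest changes. EIF5A, which helps the ribosome through difficult peptide bonds, fell from 27677, 23292, 24235 and 26526 normalized counts to 16088, 13787, 14331 and 14635 (log2 fold change -0.79, DESeq2 q = 3.13e-36). It had fractional counts in all libraries. EIF3C, a subunit of an initiation complex, had -0.50, and EIF4A2, an RNA helicase, had 0.47, and both were called. EIF3C had fractional counts in 87.5% of the libraries.

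Of 74 ribosome biogenesis genes, 9 were called lower and 13 higher (29.7% called, against 43.9% of all genes tested), with a median of 0.04. DDX47, a nucleolar helicase, had the lowest value of the list at -0.67, and IMP3, a component of the small subunit processome, the highest at 0.64. RIOK2, a kinase of late small subunit maturation, had 0.48 and was called. The list of 16 RNA polymerase I genes held subunits of the enzyme that transcribes the ribosomal RNA precursor, factors acting with it, and MYC. Of these 16, 5 were called lower and 2 higher with a median of -0.06, and the called share was 43.8% against 43.9% of all genes tested. UBTF, the main factor at ribosomal RNA genes, fell by 0.32 on the log2 scale, CD3EAP, the older symbol of the subunit gene POLR1G, fell by 0.38, and POLR1D rose by 0.32. CD3EAP had fractional counts in 87.5% of the libraries.

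The 30 regulators of TOP messenger RNAs and mTORC1 had 6 members called lower and 11 higher, and a median of 0.17. Their called share of 56.7% stands beside 43.9% of all genes tested and 58.7% of the abundant genes. HNRNPD, an RNA-binding protein also named AUF1, fell from 6455, 6732, 7829 and 7184 normalized counts to 3389, 3026, 3504 and 3966 (log2 fold change -1.02, DESeq2 q = 3.58e-38). AKT1S1, an inhibitory subunit of mTORC1, fell by 0.86 on the log2 scale. SESN2, a stress-induced inhibitor of mTORC1 activation, rose by 1.01, a 2.01-fold difference. The log2 fold changes of these 3 genes were larger in size than that of any ribosomal protein member.

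The 78 mitochondrial ribosomal protein genes, which build the separate ribosome of that organelle, had 20 members called lower and 17 higher, a share of 47.4% against 43.9% of all genes tested. Their median was 0.02, but the median size was 0.22 against 0.09 for the cytosolic members. On the log2 scale MRPL54 had -1.78, MRPL27 -1.32 and MRPL42 -0.73, and all 3 were called. None of the 18 snoRNA host genes listed for comparison was among the genes tested, so they were not analysed.

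**Figure D5:**
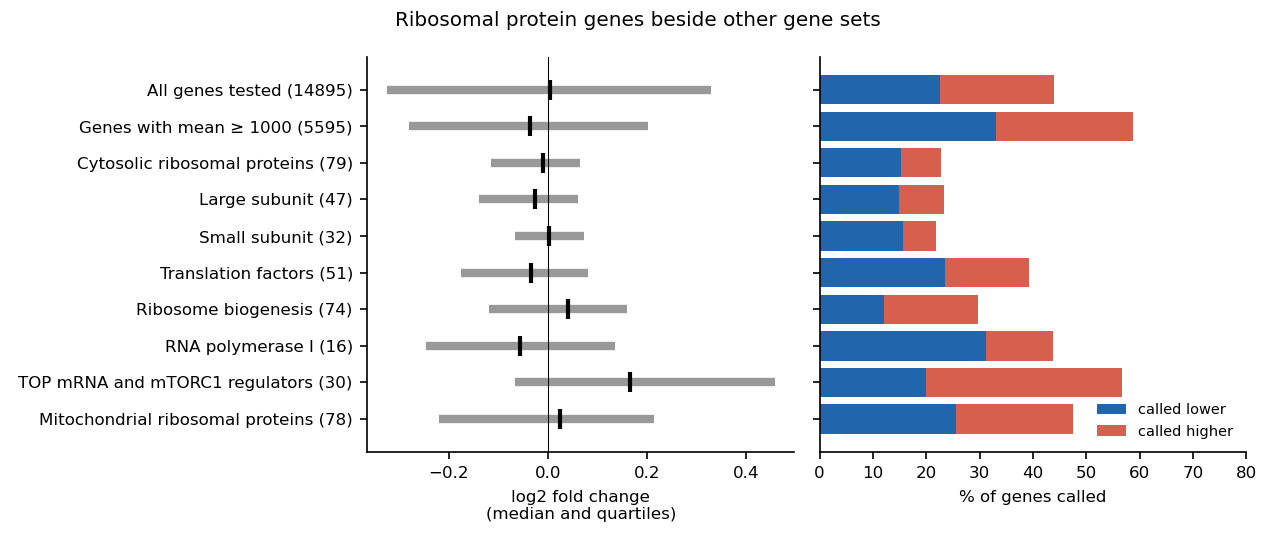
Left, median (line) and quartiles (bar) of the log2 fold change, and right, the percentage of genes called lower or higher, for all genes tested, abundant genes, the ribosomal protein genes with each subunit, and 5 comparison lists (number of genes in brackets). The cytosolic ribosomal protein genes have one of the narrowest bars and 22.8% called, against 43.9% of all genes.

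The members lie on 21 chromosomes, 12 of them on chromosome 19. Their canonical transcripts had a median length of 785 bases, against 3311 for all genes tested with a length, and a median GC content of 47.6% against 48.9%. Across the 79 members, which share libraries and are not independent, the log2 fold change had a Pearson r of -0.02 with log2 length, 0.28 with GC content and 0.17 with log2 level. After removal of a trend with transcript length within each library 18 members were called lower and 5 higher, and after removal of a trend with GC content 11 and 6. Of all genes, the length fit called 3404 lower and 3330 higher, and the GC fit 3381 and 3328. Fractional counts in any library were found for 16 members and in all 8 libraries for 7. These 7 were RPL12, RPL17, RPL36A, RPL41, RPS10, RPS26 and RPSA, whose values are uncertain to the extent that reads were shared with other genes. RPL17, RPL36A and RPS10 overlap the combined gene entries RPL17-C18orf32, RPL36A-HNRNPH2 and RPS10-NUDT3, which also had fractional counts. These entries were chosen after their values were seen. RPL17-C18orf32 was called higher (log2 fold change 0.64, DESeq2 q = 0.0120), and the others were not called.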

How the data were processed

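LX-2 RNA was sequenced from 4 control and 4 OSMI-1 libraries. The authors aligned reads with Bowtie2 2.3.5.1 to hg38 and quantified genes with RSEM 1.3.1, per the labels and the study's methods. The deposited files hold expected counts per gene and library, estimated counts not scaled for depth. A deposited DESeq2 1.36.0 comparison table (log2 fold changes, standard errors and p-values) was not used.

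Expected counts were rounded, genes totalling under 10 counts were left out, and 14895 genes were fitted in R 4.3.3 with DESeq2 1.42.0 (Wald test, replicate and treatment as terms, median-of-ratios size factors, q of 0.05 or lower). edgeR 4.0.16 was an alternative. The scripts were tested on simulated data. Replicate numbers pair the libraries by the study's methods. The deviations of same-numbered libraries from their group means correlated at 0.372, 0.391, 0.165 and 0.327 over 10994 genes. Control replicate 3 correlated more with OSMI-1 replicate 4 (0.343) than with its own number, and Control replicate 4 with OSMI-1 replicate 3 at 0.255, so for these numbers the pairing is taken from the labels and the study's methods, not from the data. No 2 libraries were copies (chi-square per degree of freedom of at least 8.38).

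Transcript length, GC content and gene positions came from GENCODE 44 (GRCh38), and promoter sequences from RefSeq. Named members were a fixed set of well-known genes, the 6 largest called rises and the 6 largest called falls with the same direction in all 4 pairs, and the 3 highest and lowest per length. Ribosomal genes with other symbols were also fixed, and 3 genes of each of 5 comparison lists were named by the largest absolute Wald statistic. Some of these are not reported here by name, and 1 of them stays in the counts over members. Other members named, such as those near the threshold or with wide intervals, were chosen after their values were seen. The members and lists were chosen with earlier results of these data known. Leaving out each replicate, count filters, size factors, and GC and length trends were the other alternatives. Intervals cover the model's error at 95%, and p-values the spread between cultures of a single line.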

Additional observations from a re-analysis of the deposited data

Results flagged for a closer look

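A sample far from the others of its group was looked for in each group of 4 libraries for the named genes with the Dixon gap, the distance of the most extreme library to its neighbour divided by the range of the group. Of 64 groups, 2 passed the critical value of 0.829, where chance would give about 3.2. RPS16 in control cells had a gap of 0.899, with Control replicate 3 at 8209 normalized counts below 8844, 8896 and 8916 in the others. RPL21 in control cells had a gap of 0.841, with Control replicate 1 at 5921 normalized counts above 5681, 5637 and 5682.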

How the results depend on the processing

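The number of members called differed between settings. Members called lower (12) and higher (6) became 7 and 4 with no replicate block, 7 and 5 with edgeR and the block, 2 and 4 with edgeR and no block, and 0 and 16 with library totals as size factors. Of all genes, edgeR called 3593 lower and 3481 higher with the block, and 3060 and 2981 without it. Leaving out each replicate gave 0 to 10 members lower and 2 to 9 higher. Large subunit members called lower (7) numbered 2 with edgeR and no block, 3 with edgeR and the block, 0 with library totals (0 at an unadjusted p under 0.05) and 13 with the length trend removed, and 0 to 6 without a replicate. Those called higher (4) numbered 2 with no block by either tool and 10 with library totals, and 2 to 6 without a replicate. Small subunit members called lower (5) numbered 2 with DESeq2 and no block, 0 with edgeR and no block (3 at an unadjusted p under 0.05) and 0 with library totals (0 unadjusted), and 0 to 4 without a replicate. Those called higher (2) numbered 6 with library totals and 0 to 3 without a replicate. Translation factors called lower (12) numbered 7 with edgeR and no block and 5 with library totals, and 8 to 11 without a replicate. Those called higher (8) numbered 5 with no block, 3 with edgeR and no block, 13 with library totals and 5 with the length trend removed, and 2 to 6 without a replicate. Ribosome biogenesis genes called lower (9) numbered 5 with edgeR and no block and 3 with library totals, and 3 to 9 without a replicate, and those called higher (13) numbered 22 with library totals and 5 to 8 without a replicate. RNA polymerase I genes called lower (5) numbered 3 with the GC trend removed, 3 with edgeR and no block and 2 with library totals, and 1 to 3 without a replicate, and those called higher (2) 1 to 2. Mitochondrial ribosomal protein genes called higher (17) numbered 9 to 14 without a replicate. The cause of these moves was not tested, beyond fewer libraries in the fits without a replicate.

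Estimates near 0 changed sign. With library totals RPL13A had 0.0423, RPS6 0.0352, RPL39L 0.0103, RPL10 0.0811 and RPL14 0.0157. With the length trend removed RPL3 had -0.0377, RPL35 -0.0133 and RACK1 -0.0397, and with the GC trend removed RPL35 had -0.0118 and RACK1 -0.00948. Without a replicate the log2 fold change spanned -0.0957 to 0.00528 for RPL13A, -0.0459 to 0.0728 for RPL3, -0.0362 to 0.0360 for RPS27L, -0.0558 to 0.0442 for RPL10, -0.0544 to 0.0956 for RPL35, -0.0395 to 0.0554 for RACK1 and -0.0383 to 0.274 for RPL22L1. None of these genes was called in the reported fit. The median of the members spanned -0.06 to 0.05 and the difference in share 0.15 to 0.31 points without a replicate. At 139 normalized counts in control cells, RPL39L was the member with the least depth and the widest interval.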
